A study of Mus musculus with 8 samples.

Results

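Co-producers of interleukin 17A and interleukin 22 are T helper 17 (Th17) cells that carried transcripts of both cytokines, and they numbered 862 of the 27420 cells on the authors' cell list (3.14%). A listed cell was counted as a T cell when Cd3e, Cd3d, Cd3g, Trac and Trbc2 together had at least 2 unique molecular identifiers (UMIs, each standing for 1 captured RNA molecule). Such a cell also had at most 1 UMI each of Cd79a (B cells), Col3a1 (fibroblasts) and C1qa (macrophages). Of the 19833 cells that passed this gate, co-producers had no Foxp3 UMI, at least 2 Il17a UMIs and at least 1 Il22 UMI. Measured values of Il17a and Il22 therefore chose the cells, and both genes are given below as description only. Cells with at least 2 Il17a UMIs and no Il22 UMI, called Il17a-only cells (2441), and cells with neither transcript, called Il17a-negative cells (11674), passed the same gate and had no Foxp3 UMI.

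The cells came from the colonic lamina propria, the connective tissue beneath the gut epithelium, of C57BL/6 mice aged 10 to 12 weeks and kept free of specific pathogens. CD4 cells were enriched before droplet single-cell RNA sequencing of 3′ ends, and each of 4 groups had 2 libraries from separate animals. All mice were taken on day 10. Untreated wildtype mice and untreated mutant mice drank plain water, while DSS wildtype mice and DSS mutant mice received 2% dextran sulfate sodium, which injures the colonic epithelium, over 7 days, followed by 3 days of plain water. Mutant mice carried an amino acid substitution in RORγt, written S203A in the sample titles and S182A in the series title. Counts per gene do not show the substitution. The study compared DSS with no treatment in wildtype mice, and mutant with wildtype mice separately without and with DSS.

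RORγt is the transcription factor that defines the Th17 lineage, and it binds ROR response elements at the Il17a and Il17f genes. IL-17A and IL-17F act on epithelial and stromal cells to draw in neutrophils, whereas IL-22 acts on epithelial cells and drives barrier repair and antimicrobial defence. Signals through the receptors for IL-23, IL-1 and IL-6 and through the aryl hydrocarbon receptor (Ahr) raise IL-22 production in T cells. Group 3 innate lymphoid cells (ILC3), which lack a T cell receptor and carry Kit, Fcer1g and Tyrobp, are the other main makers of IL-22 in the gut.

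Stretches upstream of the cytokine genes are shown here because the mutated factor binds elements with the core AGGTCA. Those of Ccl20 and Il23r were added because they hold these letters, a choice made with the matches known. They are from RefSeq (GRCm38.p6, the mm10 build of the counts), run 5′ to 3′ on the gene's strand, and overlap no annotated exon. Capitals mark AGGTCA or, on the other strand, TGACCT. The stretches lie at chr1:20730755-20730820 (Il17a, + strand), chr1:20784293-20784358 (Il17f, − strand), chr1:83116562-83116627 (Ccl20, + strand), chr6:67492049-67492105 (Il23r, − strand) and chr10:118204798-118204863 (Il22, + strand).
Il17a: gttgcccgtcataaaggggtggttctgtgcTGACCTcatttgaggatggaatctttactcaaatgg
Il17f: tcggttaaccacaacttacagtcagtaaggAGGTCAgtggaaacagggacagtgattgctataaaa
Ccl20: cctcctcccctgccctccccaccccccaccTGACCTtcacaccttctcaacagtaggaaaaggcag
Il23r: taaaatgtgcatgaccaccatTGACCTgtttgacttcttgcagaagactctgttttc
Il22: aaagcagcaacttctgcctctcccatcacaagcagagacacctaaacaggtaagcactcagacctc

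The marked letters start at position -120 for Il17a, -58 for Il17f, -174 for Ccl20 and -229 for Il23r, counted from the RefSeq gene start. Il23r held 2 matches, of which the first is shown. The windows of Cxcl3, Il17re and Il1r2, which also stood above other T cells in co-producers, held no match. The 300 bases around the Il22 start held no match on either strand, which says only that these letters are not in this window. Of all 32851 promoter windows of this length, 16.3% held AGGTCA on either strand. Over the genes looked up for this text, 97 of 131 had a window, and AGGTCA was in 19 of their 132 windows (14.4%). The AP-1 motif TGANTCA, counted separately on both strands, was in 9 of them (6.82%) and in 7.81% of all windows. A match describes the sequence and is not evidence of binding.

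The T cell genes of the gate and Cd4 describe co-producers and are no test of their identity, since the gate and the authors' list fixed them. Each of the 862 had a Cd4 UMI, as had every cell on the list. A UMI of Trac, Trbc1 or Trbc2, the constant parts of the αβ T cell receptor, was found in 847, and Trbc1 was not part of the gate. The median sum of the 5 T cell genes was 10 UMIs. Trdc, of the γδ receptor, was found in 5 co-producers and Cd8a in 2. ILC3-type genes were present in a part of them, with Kit in 199 (23.1%), Fcer1g in 77 (8.93%) and Tyrobp in 43 (4.99%). The median depth of a co-producer was 2447.5 to 4136 UMIs by library, against 2156.5 to 3412.5 for Il17a-only cells and 1877 to 2747.5 for Il17a-negative cells. No co-producer's barcode recurred among the co-producers of another library, and 3 of them matched a listed barcode elsewhere. The 8 libraries held 34497509 to 46960005 UMIs each, and the summed UMIs of co-producers ranged from 125362 to 778174.

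Co-producers were a variable share of the T cells. Of gated T cells they made up 3.04% and 5.31% in the untreated wildtype libraries, and 4.50% and 9.08% in the untreated mutant libraries. In the DSS wildtype libraries the shares were 4.98% and 1.40%, and in the DSS mutant libraries 7.33% and 0.941%. The libraries of each DSS pair were thus farther apart than the means of all DSS and all untreated libraries. The 4 DSS libraries averaged 3.66% ± 3.04 (SD, n = 4) and the 4 untreated libraries 5.48% ± 2.57 (SD, n = 4), and the exact two-sided permutation test gave p = 0.429. Mutant libraries averaged 5.46% and wildtype libraries 3.68% (exact permutation p = 0.457). With 4 libraries against 4 this test cannot give a p below 0.0286, and 4 such tests were adjusted together by the Benjamini-Hochberg method (adjusted p = 0.610 for both). Single libraries set the size of these differences. DSS minus untreated, -1.82 points, was -0.622 without untreated mutant replicate 2, -1.07 without DSS wildtype replicate 2, and -3.04 and -0.913 without DSS mutant replicates 1 and 2. Mutant minus wildtype, 1.78 points, was 0.573, 1.02, 1.16 and 3.29 without the same libraries, in that order. Exact binomial intervals of 95%, which cover counting error only, are drawn in the plot of shares.

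Set against Th17 cells alone, the share that also carried Il22 was lower after DSS in most libraries. Of Foxp3-negative T cells with at least 2 Il17a UMIs, co-producers were 24.1% and 32.4% in untreated wildtype, 36.7% and 33.5% in untreated mutant, 27.7% and 15.9% in DSS wildtype, and 22.1% and 12.9% in DSS mutant libraries. The groups overlapped through DSS wildtype replicate 1, which lay above untreated wildtype replicate 1. The mean was 19.7% ± 6.56 with DSS and 31.7% ± 5.34 without (SD, n = 4 each), a difference of -12.0 percentage points (exact permutation p = 0.0571, adjusted p = 0.229). The difference remained at -11.1 points (exact permutation p = 0.0571) when every cell was thinned to 1500 UMIs before the rule was applied, which left out 3682 listed cells. Among barcodes outside the authors' list, the corresponding shares were 16.5% with DSS and 29.9% without, and the groups did not overlap (exact permutation p = 0.0286, the smallest possible and not adjusted). These barcodes came from the same animals. Of the 966 that met the rule, 182 had a Cd4 UMI, which each listed cell had. Mutant and wildtype libraries averaged 26.3% and 25.0% (exact permutation p = 0.886). Il17a-positive cells themselves were 16.8% of gated T cells with DSS and 17.1% without (exact permutation p = 1).

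**Figure D1:**
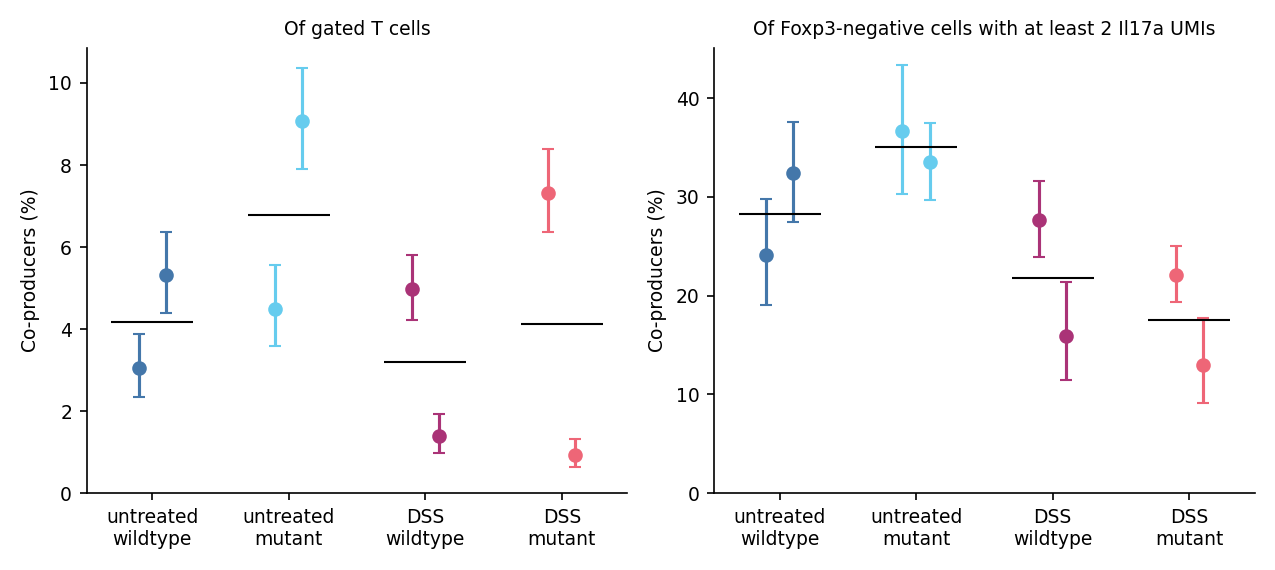
Share of co-producers (%) in each library, of gated T cells (left) and of Foxp3-negative T cells with at least 2 Il17a UMIs (right). Points are libraries in the order replicate 1, replicate 2, bars are exact 95% binomial intervals (counting error only) and lines are group means; on the right the DSS libraries lie between 12.9% and 27.7% and the untreated libraries between 24.1% and 36.7%.

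Free RNA in the droplets can give UMIs in cells that do not make a transcript, so the same rule was applied to fibroblast-type barcodes, which had at least 5 Col3a1 UMIs and at most 1 UMI of the T cell genes. Of 6995 such barcodes, 15 (0.214%) met the rule on Il17a and Il22. It was met by 0 of 1588 and 0 of 824 such barcodes in the untreated mutant libraries, which allows shares of up to 0.189% and 0.364%. The share was 0.166% and 0.216% in untreated wildtype and 1.5%, 0.263%, 0.729% and 0.209% in the DSS libraries, highest in DSS wildtype replicate 1 on 3 of 200 barcodes. An Il22 UMI was seen in 0.441% to 3.64% of them by library, at median depths of 3951 to 7518 UMIs. In gated Foxp3-negative T cells without an Il17a UMI the share with an Il22 UMI was 2.33% to 5.53%, and in T cells with at least 2 Il17a UMIs it was 12.9% to 36.7%. Each library's share in Il17a-positive cells was thus above both backgrounds, neither of which required an Il17a UMI. Fibroblast-type barcodes with at least 2 Il17a UMIs were few, at 7, 14, 2, 3, 9, 5, 25 and 11 in the library order used above. An Il22 UMI was seen in 2, 3, 0, 0, 3, 2, 4 and 1 of them. On so few barcodes these shares were not below the T cell shares in every library. The part of free RNA holding both transcripts was not tested.

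Il22 was unevenly spread over the co-producers. Exactly 1 Il22 UMI was found in 305 (35.4%), at least 10 in 168, and the highest cell had 217. The median per co-producer was 3 and 3 UMIs in untreated wildtype and 3 and 4 in untreated mutant libraries. It was 2 and 1.5 in DSS wildtype and 2 and 1 in DSS mutant libraries. The rule keeps these medians at 1 or above, and they were not adjusted for depth. The richest 10% of co-producers in a library held 44.1% to 63.2% of its co-producers' Il22. Summed over cells, Il22 stood at 1080 and 1380 CPM (UMIs of the gene per 1000000 UMIs of the summed cells) in untreated wildtype, 1550 and 2586 in untreated mutant, 1348 and 1436 in DSS wildtype, and 2163 and 768 in DSS mutant co-producers. Il17a in the same sums was 2488, 1679, 3076 and 4472 CPM in the untreated libraries and 3076, 3773, 3602 and 2271 CPM in the DSS libraries, in the same order. Neither gene was tested, since both chose the cells. At the edge of the rule, 104 co-producers had exactly 2 Il17a UMIs, and 94 cells with 1 Il17a UMI and at least 1 Il22 UMI stood just outside it.

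Most Il22 of the listed cells lay outside the co-producers in 7 of 8 libraries. Co-producers held 7.94% to 51.2% of the Il22 UMIs of all listed cells, with the highest share in DSS mutant replicate 1 and the lowest in DSS mutant replicate 2. Cells with fewer than 2 UMIs of the T cell genes held 16.8% to 45.6%. A near-identical copy of Il22, Iltifb, had 111 UMIs in co-producers against 6448 of Il22. Of the 1021 stretches of 90 bases in the Il22 transcript, 246 (24.1%) also occur in Iltifb, and of the 311 in its last 400 bases, the end that these libraries read, 27 do, so that part of the reads could have been assigned to either gene or to none.

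Co-producers with more Il22 differed in other genes from those with less. Grouped by 1, 2 to 4, 5 to 9, 10 to 29 and at least 30 Il22 UMIs (305, 260, 129, 125 and 43 cells), their median Il17a was 6, 9, 12, 17 and 16 UMIs. Il17f, which encodes the partner of IL-17A, had a UMI in 37.4%, 48.5%, 55.0%, 65.6% and 46.5% of these classes and in 28.5% of Il17a-only cells. Median depth also differed, at 2910, 3039.5, 3742, 3300 and 4656 UMIs. After thinning to 1500 UMIs the Il17f shares were 24.6%, 36.1%, 39.3%, 49.6% and 30.2%, against 21.2% in Il17a-only cells. The thinned share of Il17f cells was thus higher in each class up to 29 Il22 UMIs than in the one before, and lower in the class above. Il17a chose the cells and its medians were not thinned, and the libraries did not contribute equally to the classes.

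Fcer1g, Vegfa and Palld were most frequent in the 43 co-producers with at least 30 Il22 UMIs. Fcer1g, an adaptor of innate receptors, had a UMI in 44.2% of them and in 3.93% of those with 1 Il22 UMI. Vegfa, the vascular growth factor, was found in 34.9% against 2.30%, and Palld, a protein of the actin skeleton, in 27.9% against 1.64%. Thinned to 1500 UMIs the values were 23.3% against 1.41% for Fcer1g and 18.6% against 1.06% for Vegfa. Kit, thinned, was in 16.3% of this class, close to the 16.0% and 16.4% of the classes of 10 to 29 and of 5 to 9 Il22 UMIs. For comparison, 182 listed cells had fewer than 2 UMIs of the T cell genes and at least 5 Il22 UMIs. Of these, 83.0% had Fcer1g, 81.9% Vegfa, 62.6% Palld, 63.2% Kit and 1.10% Cd3e, at a median depth of 2669 UMIs. Selection set the T cell genes, at 2 or more UMIs in co-producers and fewer than 2 in the 182 cells. This contrast is therefore no result, and 13.7% of the 182 had Trbc2. Thinned, Trbc2 was in 48.8% of co-producers with at least 30 Il22 UMIs and in 64.8% to 69.4% of the other classes. Trac, at 46.5% against 41.8% to 45.9%, was not lower there. Cd3e, at 37.2%, lay within the 36.1% to 44.5% of the others. The co-producers richest in Il22 thus carried, in part, genes frequent in Il22-rich cells with few T cell genes. Whether they hold RNA of more than 1 cell was not tested. These classes pool cells of all libraries and are descriptions without a test.

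**Figure D2:**
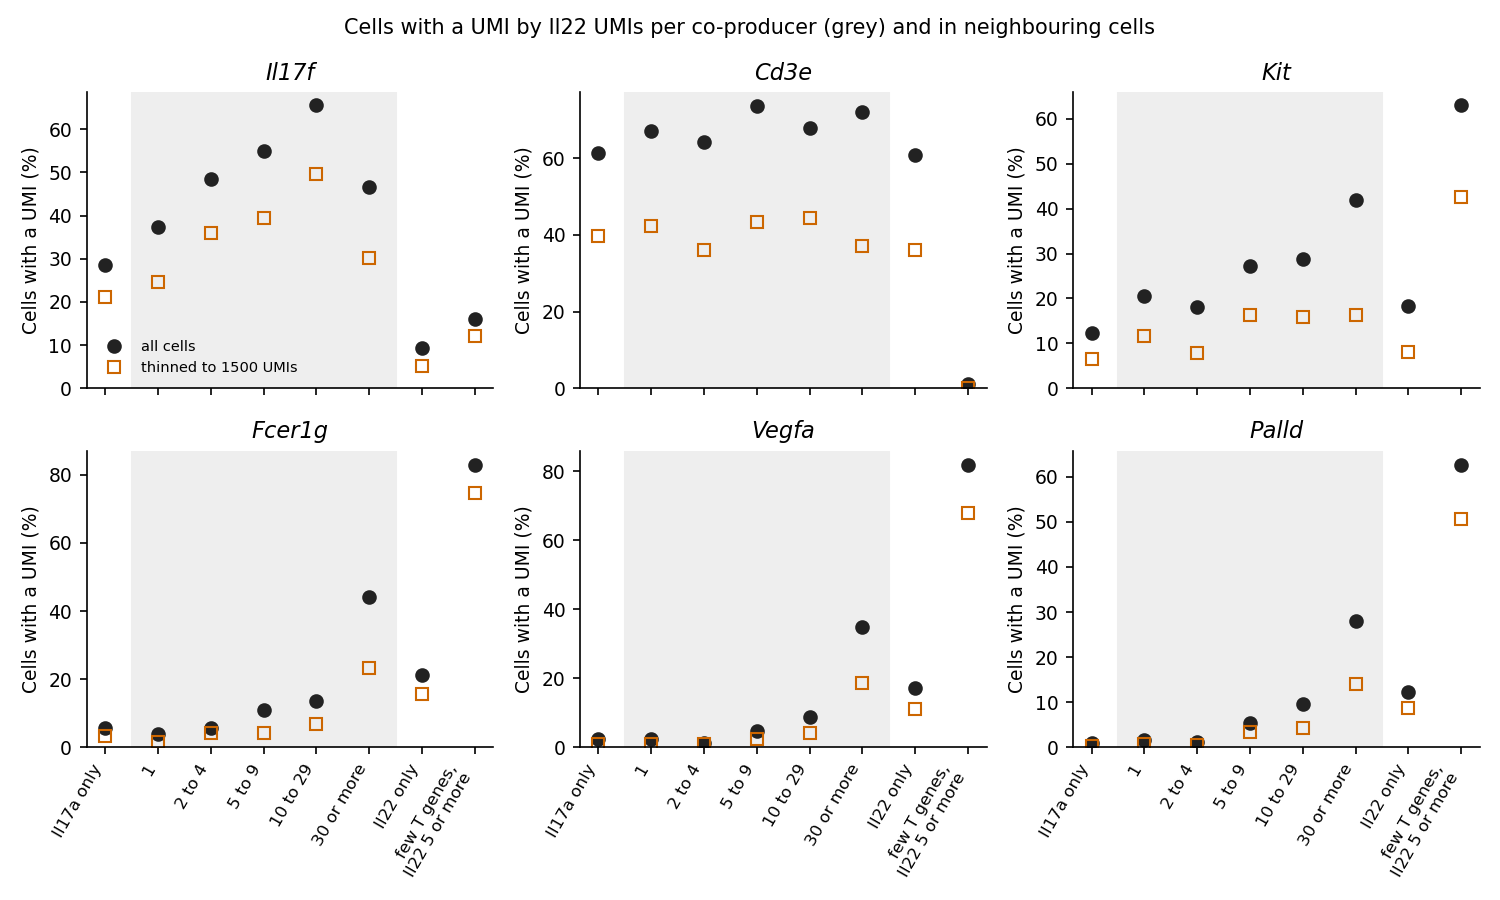
Percentage of cells with at least 1 UMI of 6 genes, in Il17a-only cells, in co-producers by their Il22 UMIs (grey), in cells with Il22 and no Il17a, and in cells with fewer than 2 T cell gene UMIs and at least 5 Il22 UMIs. Filled points are all cells and open squares are cells thinned to 1500 UMIs; Fcer1g, Vegfa and Palld are highest in the last class, at 83.0%, 81.9% and 62.6%, and among co-producers are highest at 30 or more Il22 UMIs.

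Within the Th17 cells, co-producers differed from Il17a-only cells of the same animals by more Il17f, more transcripts of dividing cells and of the AP-1 genes Jun and Fosb, and more Kit and Il1r1. Counts were summed per library and population and compared in edgeR's quasi-likelihood test with the library as a block, adjusted by the Benjamini-Hochberg method over 5965 genes. Of these, 50 (0.838%) passed an adjusted p of 0.05, 31 higher (0.52%) and 19 lower (0.319%) in co-producers, and the median log2 fold change of all genes was 0.00. The count was lower where depth or gate was restricted, which also left fewer cells. It was 4 among cells of 2000 to 6000 UMIs, where 37 of the 50 genes were still tested. After thinning to 1500 UMIs it was 6, with 25 of the 50 still tested. With at least 5 T cell gene UMIs and no Kit, Fcer1g or Tyrobp in either population it was 3, with 38 still tested. The parts of depth, gate and cell number in this were not tested. With no replicate block the count was 2. Il17f kept its call in each of these fits, so most of the other genes named below did not pass in them. Of 33 called genes followed through each alternative, 21 remained past the threshold without DSS mutant replicate 1, and 24 to 31 remained without any other single library.

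Il17f gave the most stable difference. Its lowest, median and highest values were 270, 320 and 644 CPM in co-producers and 95.6, 202 and 416 CPM in Il17a-only cells, and it was higher in co-producers in 8 of 8 libraries. The log2 fold change was 0.78 ± 0.087 (SE; edgeR adjusted p = 3.44e-07). It passed under all 22 alternatives tried, with log2 fold changes of 0.51 to 1.14. It was found in 44.9% ± 10.1 of co-producers and 28.9% ± 10.8 of Il17a-only cells (SD, n = 8 libraries), against 0.726% ± 0.560 of fibroblast-type barcodes. The 2 populations were not matched on Il17a, which chose the cells. Median Il17a per cell was 8 to 13 UMIs by library in co-producers and 4 to 8 in Il17a-only cells. The part of this in the Il17f difference was not tested.

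Genes of the cell cycle were the largest group among those higher in co-producers. Of 12 tested genes of a proliferation list, 5 rose, all 12 had a positive log2 fold change, and the list's median was 0.48 beside 0.00 for all genes. The list's summed level was lower in co-producers in DSS wildtype replicate 2 (869 against 997 CPM) and DSS mutant replicate 2 (979 against 1021 CPM). It was higher in each other library. Mki67, a marker of cycling cells, ranged over 101, 146 and 210 CPM (lowest, median, highest) in co-producers and 56.8, 130 and 170 CPM in Il17a-only cells. It was higher in 8 of 8 libraries by 0.50 ± 0.09 on the log2 scale (SE; edgeR adjusted p = 0.00178). Top2a, the topoisomerase of dividing cells, rose by 0.53 and Birc5, a regulator of chromosome segregation, by 0.91. Stmn1 rose by 0.61 and Mcm3, of the replicative helicase, by 0.57. Outside the list, the histone genes Hist1h2ap and Hist1h2ae (0.94 and 0.78) and the replication genes Pclaf (0.74) and Lig1 (0.65) also rose. Histone genes have near-identical copies, and how reads were split among them is uncertain. No gene of the proliferation list passed among cells of 2000 to 6000 UMIs, where Mki67 stood at 0.30 and Mcm3 at 0.42. Without DSS mutant replicate 1, Mcm3 (0.45), Lig1 (0.51) and Birc5 (0.77) missed the threshold. Without untreated mutant replicate 1 the same held for Birc5 (0.75) and Hist1h2ae (0.54).

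Signalling genes formed a smaller group. Of 23 tested genes of an activation and AP-1 list, Jun and Fosb rose and 18 were positive (list median 0.11). Jun ranged over 582, 777 and 1048 CPM in co-producers and 433, 661 and 744 CPM in Il17a-only cells, and was higher in 8 of 8 libraries (log2 fold change 0.34 ± 0.054 SE, edgeR adjusted p = 0.000422). Fosb was 0.32 higher. Of the 11 tested genes of the Th17 lineage list, Il17f and Il1r1 rose (list median 0.19). Il1r1, the IL-1 receptor, was higher in 8 of 8 libraries by 0.40 ± 0.087 (SE; edgeR adjusted p = 0.0115), with 79.8, 129 and 199 CPM against 67.6, 95.7 and 160 CPM. It missed the threshold without untreated wildtype replicate 2, at 0.35. Since Il17f was among the 2 calls with no replicate block, Jun, Fosb and Il1r1 cannot all have passed there. The chemokine gene Cxcl3 rose by 0.39, was higher in 6 of 8 libraries and missed the threshold in 13 of 22 alternatives.

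Of 13 tested genes of a list on the regulation of IL-22, only Il1r1 passed between the populations (list median 0.02). The list mixes genes that favour IL-22 with the repressor Maf, so its median has no single direction. Ahr differed by 0.00 ± 0.073 and Il23r, the IL-23 receptor, by 0.19 ± 0.15 on the log2 scale (SE). Ccr6, the receptor for the chemokine Ccl20, stood at 0.59 ± 0.18 (edgeR adjusted p = 0.142). Maf, a repressor of Il22 in T cells, was at -0.18 ± 0.051 and was lower in 6 of 8 libraries (edgeR adjusted p = 0.0974). Ifng, which marks Th1 cells and some Th17 cells, was at 0.12 ± 0.061 (edgeR adjusted p = 0.593). None of 6 checkpoint receptors, 11 heat shock genes or 10 Th1 and cytotoxic genes passed.

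Kit and Vegfa, both frequent in Il22-rich cells with few T cell genes, were higher in co-producers. Kit, the stem cell factor receptor, ranged over 26.5, 72.0 and 146 CPM in co-producers and 35.9, 49.0 and 67.1 CPM in Il17a-only cells, and was higher in 7 of 8 libraries by 0.78 ± 0.15 (SE; edgeR adjusted p = 0.00274). Without untreated mutant replicate 2 it was at 0.53 and missed the threshold. Of 8 tested genes of the ILC3 list only Kit and Il1r1 passed, and the list's summed level was 501 to 1253 CPM in co-producers and 329 to 1273 CPM in Il17a-only cells. Vegfa, singled out after its values were seen because it lies below the level set for named genes, was higher in 8 of 8 libraries by 2.13 ± 0.24 (SE; edgeR adjusted p = 3.44e-07). It rested on 117 UMIs in 42 co-producers, of which 15 had at least 30 Il22 UMIs. Pxdc1 was 0.89 higher, and a UMI of it was found in 84.1% of the Il22-rich cells with few T cell genes. The part of such cells in these differences was not tested.

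Among the 19 genes lower in co-producers were Nr3c1, the glucocorticoid receptor, and several transcripts of other cell types. Nr3c1 was lower in 8 of 8 libraries by 0.28 on the log2 scale, with 359, 423 and 567 CPM in co-producers against 407, 562 and 653 CPM (edgeR adjusted p = 0.00362). Ccr2, a chemokine receptor of inflammatory sites, was at -0.32, Ifngr1, a chain of the interferon γ receptor, at -0.19, and Rgs1, a brake on chemokine receptors common in resident T cells, at -0.19. Ccr2 missed the threshold in 17 and Ifngr1 in 14 of the 22 alternatives, and Rgs1 was at 0.00 after thinning. Igha (IgA heavy chain) was lower by 1.08, Iglc1 (light chain) by 1.92 and Lyz2 (macrophage lysozyme) by 0.92. The summed B and plasma cell list ranged from 386 to 5833 CPM in co-producers and from 466 to 10660 CPM in Il17a-only cells. Lyz2 lost its sign among cells of 2000 to 6000 UMIs (0.25), after thinning (0.51) and with the stricter T cell gate (0.03). Without untreated wildtype replicate 2, Iglc1 (-0.44) and Lyz2 (-0.61) missed the threshold.

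**Figure D3:**
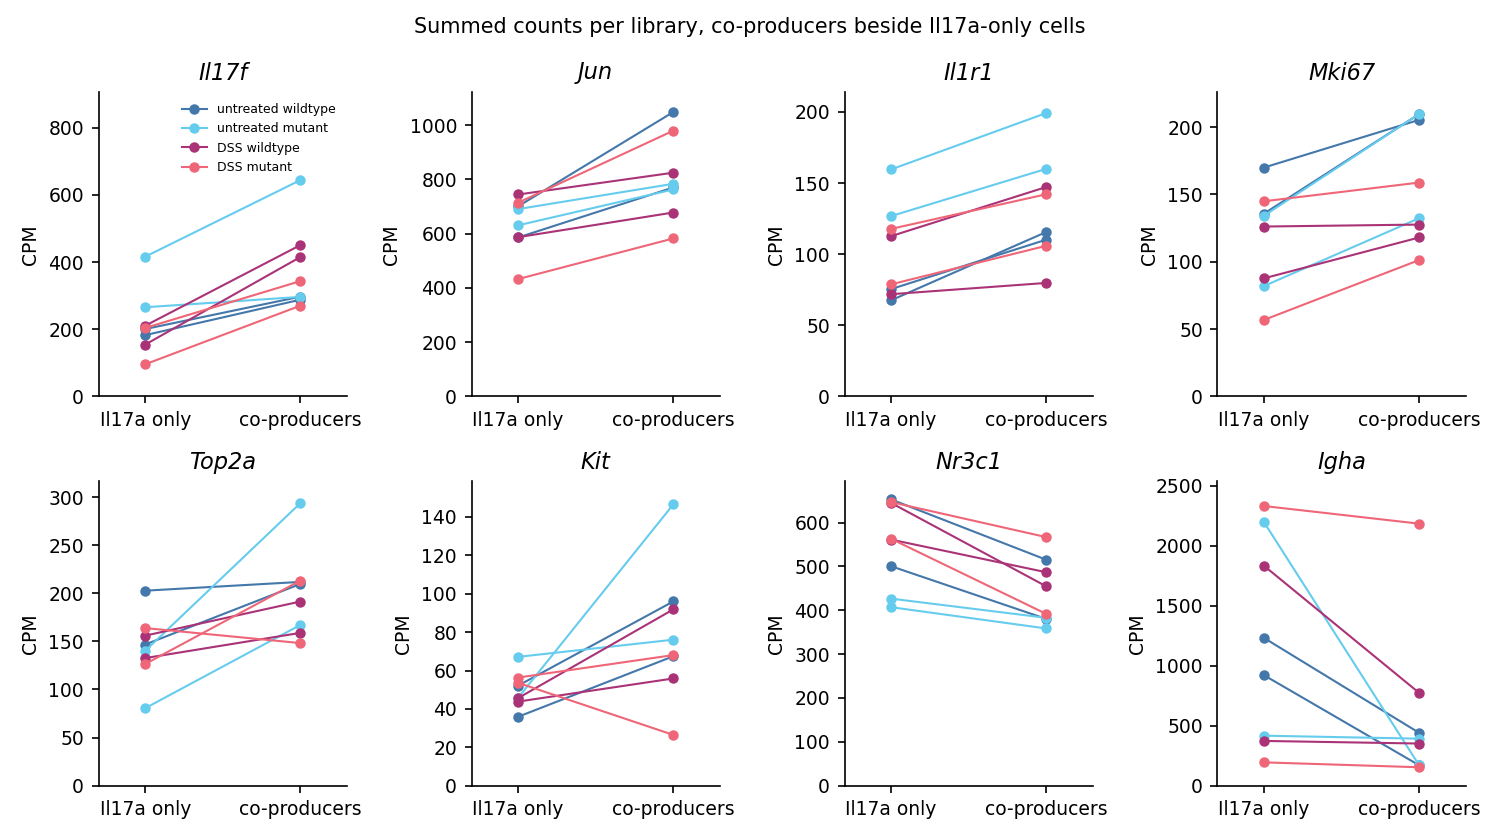
CPM of 8 genes in the summed Il17a-only cells and co-producers of each library, joined by a line, with colours for the 4 groups. Il17f, Jun, Il1r1 and Mki67 are higher in co-producers in 8 of 8 libraries, Kit and Top2a in 7, and Nr3c1 and Igha are lower in 8.

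The difference between co-producers and Il17a-only cells was then compared between conditions. With DSS as the condition, 0 of 5965 genes passed in edgeR (258 at an unadjusted p under 0.05, smallest adjusted p = 0.113; DESeq2 also called 0). For Il17f the difference was larger after DSS by 0.58 ± 0.15 (SE), which did not pass (edgeR adjusted p = 0.616). With genotype as the condition, 1 gene (0.0168%) passed, the immunoglobulin light chain gene Iglc1 at 3.49 ± 0.56 (SE; edgeR adjusted p = 0.00253), which DESeq2 did not call. Its level in Il17a-only cells of untreated wildtype replicate 2 was 1067 CPM, against 5.25 to 135 CPM in the other libraries.

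Against T cells without Il17a and Il22, co-producers carried more of most Th17 transcripts. Il17a-only cells lay near them in this. The summed Th17 lineage list was at 3404 to 5129 CPM in co-producers, 3122 to 4604 CPM in Il17a-only cells and 1396 to 2175 CPM in Il17a-negative cells. Of 8045 genes tested in edgeR, 1202 (14.9%) passed, 643 higher (7.99%) and 559 lower (6.95%). Of 11 Th17 lineage genes, 10 rose and 1 (Camk4, -0.02) did not pass, and the list's median was 1.74 beside -0.01 for all genes. Il17f was 5.82 ± 0.15 higher on the log2 scale (SE; edgeR adjusted p = 4.62e-25), with 270, 320 and 644 CPM in co-producers against 1.29, 6.45 and 13.5 CPM. Of the receptors, Il17re, a chain of the IL-17C receptor, rose by 2.60, Il23r by 2.09, Il1r1 by 1.79 and Ccr6 by 1.74. Il1r2, the decoy receptor for IL-1, rose by 2.07, with 154, 281 and 413 CPM against 34.9, 63.2 and 120 CPM. Tmem176a and Tmem176b, ion channels enriched in RORγt cells, rose by 1.74 and 1.59.

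Secreted factors were high as well. Il17a-only cells also carried Ccl20, with a UMI in 8.06% of them, 13.8% of co-producers and 0.806% of Il17a-negative cells (means of 8 libraries). Ccl20, the ligand of Ccr6, was higher in 8 of 8 libraries by 3.64 ± 0.22 (SE; edgeR adjusted p = 1.88e-14), at 42.6, 96.0 and 368 CPM in co-producers against 1.80, 10.3 and 24.4 CPM. Cxcl3, a neutrophil attractant, rose by 3.86. Areg, the epithelial growth factor amphiregulin, reached 408, 750 and 1141 CPM against 105, 199 and 391 CPM and rose by 1.76. Tnf rose by 0.91, Tnfsf11 (RANK ligand) by 0.98, Tgfb1 by 0.76 and Ifng by 0.86. Of 15 tested effector cytokine genes 8 rose and 3 fell. The T cell chemokines Ccl5 and Ccl4 fell by 1.86 and 0.90 (Ccl4 at -0.62, short of the threshold, without untreated mutant replicate 1), and the anti-inflammatory Il10 fell by 0.76.

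Genes of the list on the regulation of IL-22, which mixes favouring and repressing genes, moved both ways against Il17a-negative cells. Of 15 tested genes of that list, 7 rose and 2 fell (list median 0.19). Besides Il23r and Il1r1, Rora rose by 0.84, Rbpj, which mediates Notch signals, by 0.97, Notch2 by 1.01, Ahr by 0.38 and Stat3 by 0.19. Stat3 missed the threshold without DSS wildtype replicate 1 (0.18) or DSS mutant replicate 1 (0.16). Il6st and Il6ra, the 2 chains of the IL-6 receptor, fell by 1.26 and 1.18. Ahr was at 104, 202 and 252 CPM in co-producers and 94.8, 144 and 170 CPM in Il17a-negative cells.

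Most genes of a naive and of a cytotoxic list were lower in co-producers than in Il17a-negative cells. Between co-producers and Il17a-only cells, 0 of 7 naive and 0 of 10 Th1 and cytotoxic genes passed. The differences of these lists were thus not shown to be particular to co-producers. Of 7 naive and quiescence genes 6 fell and Satb1 (-0.05) did not pass (list median -0.90). Lef1 fell by 1.20, S1pr1, the tissue exit receptor, by 1.15, Klf2 by 0.90 and Tcf7 by 0.86. Of 11 Th1 and cytotoxic genes 6 fell and 2 rose. Gzmk fell by 2.28, Gzma by 1.55, Il12rb2 by 1.12 and Cxcr3 by 0.85, while Ifng and Il18rap, of the IL-18 receptor, rose. Of 7 tested genes of a regulatory T cell list 3 fell and 2 rose (list median -0.06), among them Ikzf2 (Helios), which fell by 1.63, and Ctla4, an inhibitory receptor, which rose by 0.69. Foxp3 chose the cells of both populations and was not tested. Cd27, a co-stimulatory receptor, fell by 1.57. Of 7 follicular helper genes 4 fell and 1 rose, and Izumo1r fell by 1.65. Of 26 activation and AP-1 genes 13 rose and 3 fell, with Irf4 at 1.05. Within the glycolysis list 5 of 13 rose, among them Hk2 by 0.76. Tcrg-C1, of the γ receptor chain, rose by 2.36 while Trdc was seen in 5 co-producers (0.580%).

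**Figure D4:**
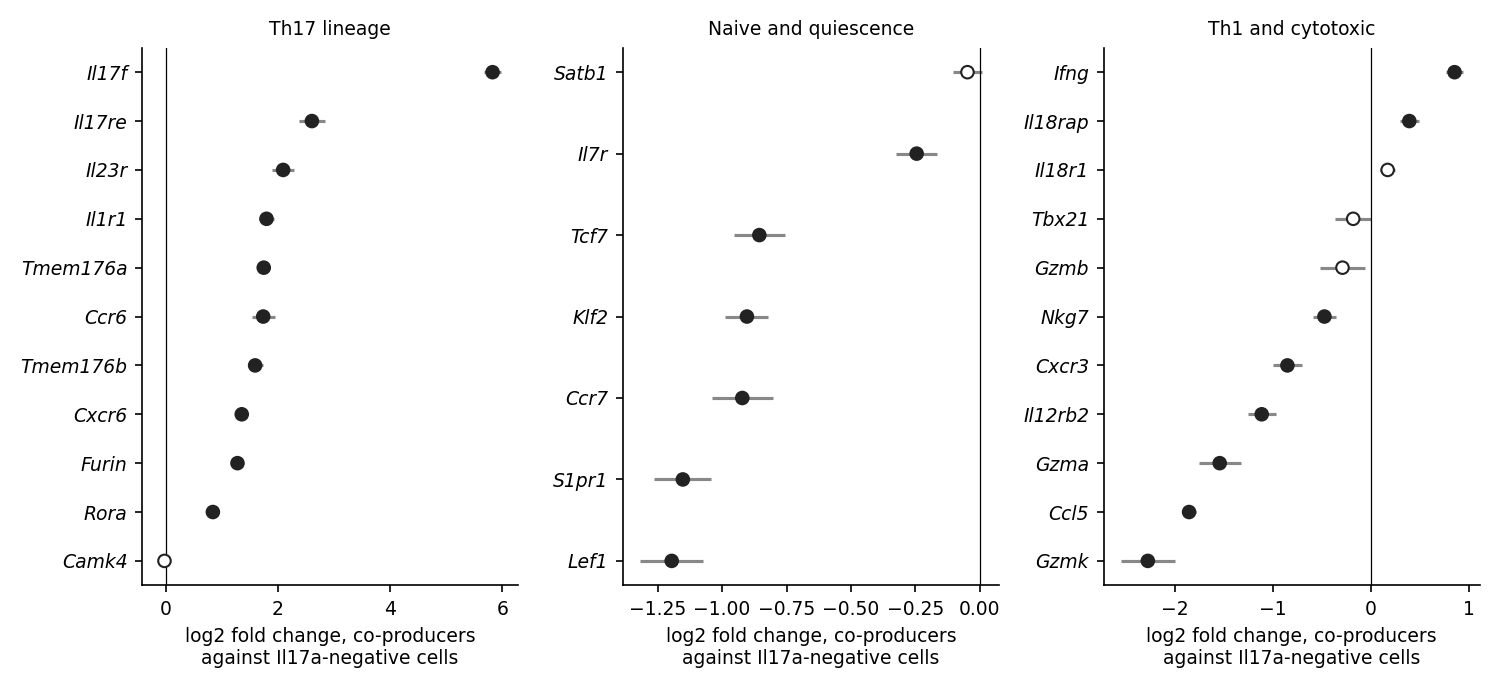
Log2 fold changes of co-producers against Il17a-negative cells for the tested genes of 3 lists, with bars of 1 SE. Filled points passed the edgeR test at an adjusted p of 0.05 and open points did not; 10 of 11 Th17 genes lie to the right of 0 and 6 of 7 naive genes passed to the left.

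DSS changed a limited set of genes in co-producers. Their summed counts in the 8 libraries were fitted in edgeR as 4 groups, and the DSS contrasts in wildtype and in mutant cells were averaged. Of 6063 genes, 68 (1.12%) passed at an adjusted p of 0.05, 26 higher (0.429%) and 42 lower (0.693%) after DSS, and DESeq2 called 46 genes, 41 of them the same. Several libraries bore on the count. It was 8 without untreated wildtype replicate 2, 36 without untreated mutant replicate 2, 34 and 23 without DSS wildtype replicates 1 and 2, and 35 without DSS mutant replicate 1. It was 22 with the stricter T cell gate. Of 31 called genes followed through each alternative, 5 remained past the threshold without untreated wildtype replicate 2. Without untreated mutant replicate 2, either DSS wildtype library or DSS mutant replicate 1, 12 to 14 remained, and 25 to 28 without any other library.

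Crip1 and Lmna gave the clearest falls. Both are on the residence and homing list, which was drawn up with earlier results of these data known. Their place on it is therefore no support for a fall of the list. Crip1, a LIM protein, stood at 2008 and 2099 CPM in untreated wildtype and 1342 and 1352 CPM in untreated mutant co-producers. After DSS it was at 670 and 790 CPM in wildtype and 794 and 868 CPM in mutant co-producers, and the treatments did not overlap. The log2 fold change was -1.08 ± 0.12 (SE; edgeR adjusted p = 0.00013). Lmna, the nuclear lamin A/C, was at 302, 282, 228 and 136 CPM without DSS and at 61.2, 95.7, 83.1 and 42.4 CPM with it, in the same library order (log2 fold change -1.68 ± 0.22 SE, edgeR adjusted p = 0.00089). These 2 genes kept the call in all 15 alternatives. Of the 13 tested genes of the list the other 11 did not pass (list median -0.29 beside 0.00 for all genes).

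Among the genes that rose, Tnfrsf9 encodes the co-stimulatory receptor 4-1BB. Its values were 74.6, 73.8, 68.2 and 64.3 CPM without DSS and 130, 175, 181 and 339 CPM with it. It rose by 1.42 ± 0.22 on the log2 scale (SE; edgeR adjusted p = 0.00285) and missed the threshold in 1 of 15 alternatives, at 1.11 among cells of 2000 to 6000 UMIs. Nr4a3, a receptor gene induced by T cell receptor signals, was at 259, 233, 241 and 330 CPM without and 354, 550, 515 and 503 CPM with DSS. It rose by 0.84 (edgeR adjusted p = 0.0152) and missed the threshold without untreated wildtype replicate 2 (0.78), untreated mutant replicate 1 (0.73), DSS wildtype replicate 2 (0.69) or DSS mutant replicate 1 (0.83). Satb1, a chromatin organiser, was at 675, 642, 558 and 541 CPM without and 857, 893, 913 and 884 CPM with DSS, a rise of 0.58. Satb1 missed the threshold in 10 of 15 alternatives, with log2 fold changes of 0.46 to 0.65 over all of them. Madd, a death domain adaptor, rose by 1.03, Slamf1 by 0.81, Cbfb, the partner of RUNX factors, by 1.27, Trat1, a T cell receptor adaptor, by 1.30 and Itgb3, an integrin chain, by 1.82.

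Saa3, an acute phase protein of inflamed gut, had no UMI in the untreated co-producers and 37 UMIs after DSS, at 10.2, 71.8, 21.2 and 37.1 CPM by library. Against the 1.45 CPM that a count of 0 over the untreated group allows (3 counts), this was at least 15.3-fold higher. Il17a-negative cells had 1.31 to 5.66 CPM of Saa3 without DSS and 6.09 to 77.2 CPM with it. Free RNA as its source was not tested. Gm42418 and AY036118, which overlap ribosomal RNA repeats, also passed, at 1.24 and -0.83, and their counts are uncertain. AY036118 missed the threshold without DSS wildtype replicate 2 (-0.78).

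Some chaperone genes and the inhibitory receptor gene Lag3 fell on average. Hsp90aa1, the inducible HSP90, was at 1638, 3904, 5661 and 6745 CPM without DSS and at 2393, 1260, 1717 and 1917 CPM with it, and untreated wildtype replicate 1 lay among the DSS libraries. It fell by 1.15 on the log2 scale (edgeR adjusted p = 0.00716), and by 0.79, short of the threshold, without untreated wildtype replicate 2. Hspd1 and Hspe1, the mitochondrial chaperone pair, fell by 1.12 and 0.91. None of the 11 heat shock genes had a positive change (median -0.69), and 3 passed. The summed list stood at 8878, 16494, 23881 and 25162 CPM without DSS and at 12454, 9644, 10594 and 13135 CPM with it, so that the untreated mutant libraries were highest. Of 6 tested checkpoint receptor genes only Lag3 passed, and 2 had a positive change. Lag3 was at 78.2, 108, 147 and 166 CPM without and 83.1, 55.8, 51.4 and 37.1 CPM with DSS (log2 fold change -1.02, edgeR adjusted p = 0.0136). It missed the threshold in 8 of 15 alternatives. Nkg7, of cytotoxic granules, fell by 0.99, the adhesion ligand Icam1 by 1.22, Lgals3 (galectin 3) by 1.29, Anxa2 by 1.07 and Jund by 0.74. Cst3, H2-DMa and H2-DMb1, genes of antigen presentation, were lower too. They were highest in untreated wildtype replicate 2, where the dendritic cell list reached 220 CPM against 0 to 90.0 CPM elsewhere.

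None of 11 tested Th17 lineage genes passed with DSS on average. Il17f was at 288, 297, 296 and 644 CPM without and 450, 415, 343 and 270 CPM with DSS (log2 fold change 0.00 ± 0.18 SE). Il10 was at -1.23 (edgeR adjusted p = 0.116) and Ifng at -0.53 (edgeR adjusted p = 0.192).

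Crip1 differed between the treatments in the other T cells of these libraries too. In Il17a-only cells Crip1 was at 1916, 2265, 1573 and 1384 CPM without DSS and at 819, 910, 839 and 891 CPM with it. In Il17a-negative cells it was at 1965, 2018, 1661 and 1161 CPM without and 685, 775, 824 and 922 CPM with DSS. The difference of the DSS effect between co-producers and Il17a-only cells was -0.05 ± 0.088 for Crip1, -0.07 ± 0.20 for Lmna, 0.25 ± 0.34 for Tnfrsf9 and -0.07 ± 0.086 for Hsp90aa1 (log2, SE), none past the threshold in edgeR. The treatment effects on these genes were thus not shown to be particular to co-producers.

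**Figure D5:**
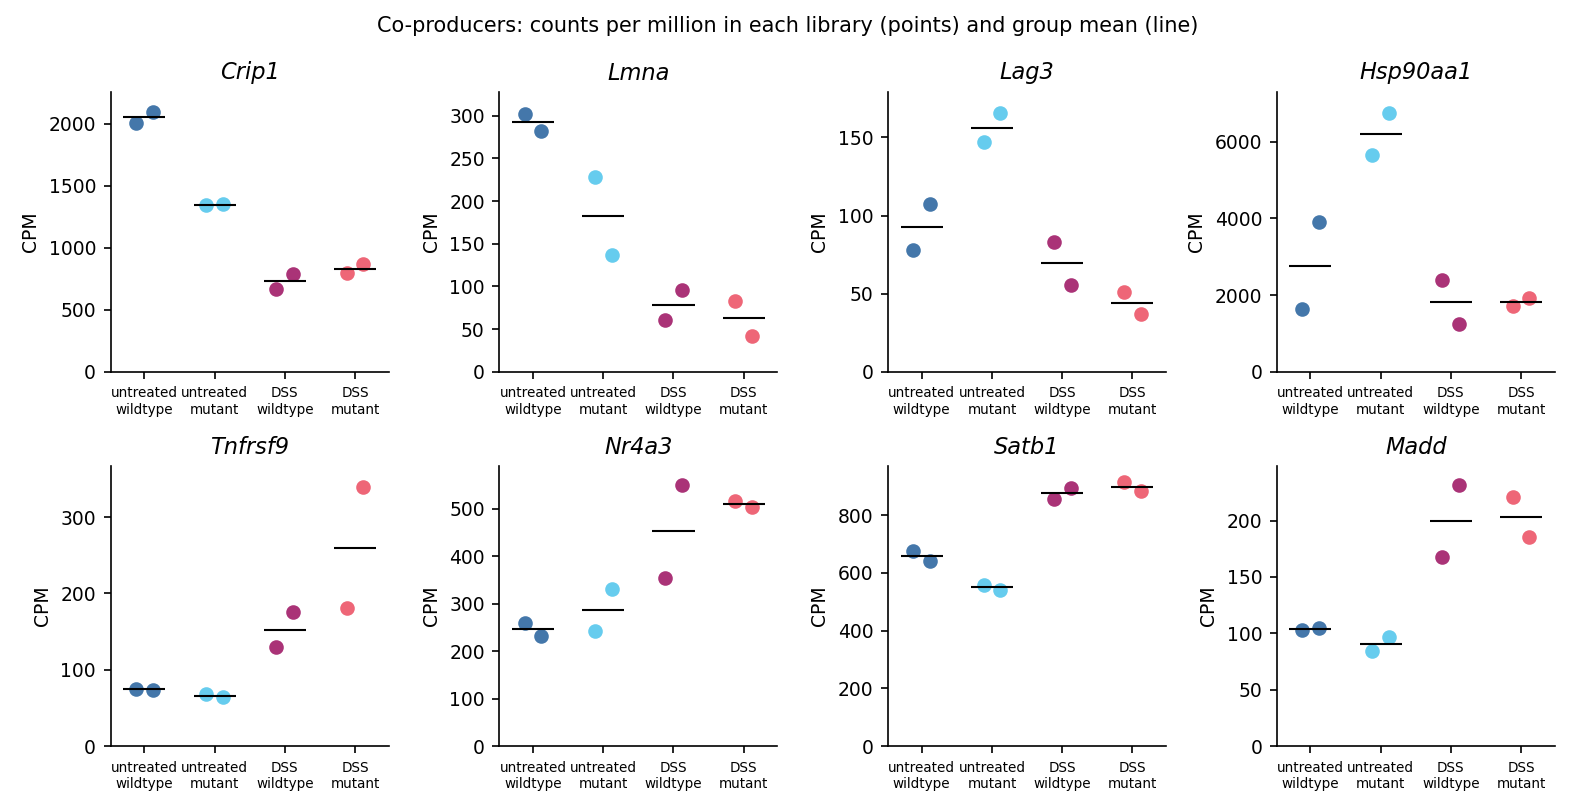
CPM of 8 genes in the summed co-producers of each library (points) and the group means (lines) for the 4 groups. Crip1 and Lmna are lower in each DSS library than in each untreated library, Tnfrsf9, Nr4a3, Satb1 and Madd are higher, and Lag3 and Hsp90aa1 overlap between treatments.

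Within wildtype mice, the comparison the study names first, 2 of 6063 genes (0.033%) passed in edgeR and both fell. Crip1 fell by 1.48 (edgeR adjusted p = 0.000271) and Lmna by 2.06 (edgeR adjusted p = 0.00826). Lmna missed the threshold without untreated wildtype replicate 2 (-2.12, with Crip1 the only call) and without DSS wildtype replicate 1 (-1.55). The count was 12 without untreated wildtype replicate 1, 15 and 12 without untreated mutant replicates 1 and 2, and 7 without DSS mutant replicate 2. Tnfrsf9 was at 0.96 ± 0.32 and Hsp90aa1 at -0.56 ± 0.28 (SE), neither past the threshold, and Hsp90aa1 was at 0.19 without untreated wildtype replicate 2.

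Within mutant mice, DSS gave 26 calls (0.429%), 12 higher (0.198%) and 14 lower (0.231%). Besides Tnfrsf9 (1.89) the genes that rose included Tgm2, a transglutaminase (2.85), Vegfa (2.31), Pxdc1 (1.43), Ccr7, the lymph node homing chemokine receptor (1.34), and Camk4, a calcium-dependent kinase (1.25). Those that fell included Hspd1 (-1.97), Hsp90aa1 (-1.75), Lag3 (-1.72), Hspe1 (-1.47) and Icam1 (-1.35). Of the Th17 lineage list 2 of 11 tested genes passed, with Camk4 higher and Il23r lower, and the chemokine gene Ccl20 also fell. Vegfa and Pxdc1 are among the genes frequent in Il22-rich cells with few T cell genes, and the part of such cells was not tested.

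Ccl20 was at 205 and 368 CPM in untreated mutant and 75.6 and 52.9 CPM in DSS mutant co-producers, a change of -2.08 ± 0.36 (SE; edgeR adjusted p = 0.0132), which missed the threshold without untreated mutant replicate 2 (-1.57) or DSS mutant replicate 1 (-2.43). Il23r was at 76.0 and 69.4 CPM and then at 21.2 and 10.6 CPM (-1.93, edgeR adjusted p = 0.0474), and it missed the threshold in 12 of 15 alternatives. In wildtype co-producers Ccl20 was at 42.6 and 91.5 CPM without and 101 and 215 CPM with DSS (0.87, edgeR adjusted p = 0.638). The DSS effect on Ccl20 differed between genotypes by -2.95 ± 0.54 (SE), which did not pass (edgeR adjusted p = 0.0799). Over all 6063 genes 0 passed as differing in DSS effect between genotypes (216 at an unadjusted p under 0.05; DESeq2 also called 0). The count of 26 was 9 without untreated mutant replicate 2 and 10 without DSS mutant replicate 1, and of 16 called genes followed through these, 2 remained in each case.

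Few or no genes passed between mutant and wildtype co-producers. With 2 libraries of each genotype per treatment, this does not show that the genotypes are alike. Without DSS 0 of 6063 genes passed in edgeR (253 at an unadjusted p under 0.05, smallest adjusted p = 0.0501; DESeq2 called 0). Ccl20 and Cxcl3 tied at this adjusted p. Ccl20 was at 205 and 368 CPM in mutant against 42.6 and 91.5 CPM in wildtype libraries (log2 fold change 1.99 ± 0.34 SE). Cxcl3, another chemokine gene, was at 425 and 626 against 139 and 149 CPM (1.86 ± 0.33 SE). Ccl20 passed in 9 and Cxcl3 in 8 of 17 alternatives. With neighbouring animal numbers in the titles as a replicate block, 19 genes passed without DSS. Averaged over both treatments 0 genes passed (200 at an unadjusted p under 0.05, smallest adjusted p = 0.750; DESeq2 called 0). Leaving out single libraries gave up to 10 calls without DSS (without untreated mutant replicate 2).

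With DSS 1 gene (0.0165%) passed, Palld, at 3.47 ± 0.57 (SE; edgeR adjusted p = 0.0374), and DESeq2 called 0. Palld was at 74.1 and 68.8 CPM in mutant and 4.37 and 16.0 CPM in wildtype co-producers. Cells with a Palld UMI numbered 11 and 4 in the DSS mutant libraries and 2 and 1 in the DSS wildtype libraries. Palld, like Fcer1g and Vegfa, was most frequent among co-producers in those richest in Il22, and was frequent in Il22-rich cells with few T cell genes. With the stricter T cell gate Palld was below the filter on low counts and was not tested. It missed the threshold without DSS wildtype replicate 1 (2.11) and without DSS mutant replicate 1 (3.42), with at least 2 Il22 UMIs (3.26) and with only the 4 libraries compared (3.46). Among cells of 2000 to 6000 UMIs it was not tested.

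None of 11 tested Th17 lineage genes passed between genotypes. Il17f differed by 0.70 without and -0.49 with DSS, neither past the threshold in edgeR. Crip1 in untreated co-producers was at -0.62 ± 0.16 and Hsp90aa1 at 1.15 ± 0.28 (SE), and neither passed (edgeR adjusted p = 0.496 and 0.435). Of 11 heat shock genes tested without DSS 0 passed, and all 11 were positive (list median 1.15 beside -0.01 for all genes). The summed list in Il17a-negative cells was at 22971 and 22895 CPM in untreated mutant and 9148 and 13739 CPM in untreated wildtype libraries, so that it was higher in mutant libraries in these T cells too.

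Over the 8 libraries, the genes whose level in co-producers ran most like that of Il22 were Pi4k2a (Pearson r of log2(CPM + 1) = 0.952), Pim1 (0.941), Prkar1a (0.939), Nras (0.928) and Selenof (0.910), out of 2858 genes ranked. These are the top values of many and share libraries, depth and cells with Il22, so they are given as description without a p.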

How the data were processed

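The authors deposited 1 table of raw UMI counts per gene and barcode for each of the 8 libraries, and a list of the cells they kept, which gives library and treatment and no cell types. The submitters' processing notes name Cell Ranger 3.1.0, Seurat 4.0.1 and the mm10 build, and how the listed cells were chosen is not given in the sources used here. Each listed cell had a Cd4 UMI. In 7 tables the rows carry numbers, and a deposited list of 31053 gene symbols gave their order; of 30934 identifiers of the other table found in a reference table of names, 30468 (98.5%) carried the symbol of that row. Another table in the deposit was left unused, and no doublet caller was run.

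Cells were selected on counts as deposited, and their counts were summed per library and population. The sums were tested with edgeR 4.0.16 (limma 3.58.1, R 4.3.3; TMM, filterByExpr, quasi-likelihood test, Benjamini-Hochberg adjustment), with the library as a block between populations of the same animals and with 4 groups and no block between conditions. The 11 genes of the rule entered library sizes and were not tested. DESeq2 1.42.0 was an alternative. The scripts were tested on simulated data. Python 3.11.15, numpy 2.4.6, scipy 1.17.1, pandas 2.3.3 and matplotlib 3.10.9 were used for the rest. CPM are UMIs per 1000000 UMIs of the summed population.

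The members and the gene lists were chosen with earlier results of these data known. Against other T cells, the genes named were the 12 highest and 12 lowest log2 fold changes with an adjusted p under 0.05, the same sign in at least 7 of 8 libraries and at least 50 CPM in the higher population, of which those described are given; between conditions, the 8 largest each way with at least 20 CPM; and genes of the lists, of which 2 are not reported here. The 5 genes most like Il22 were ranked by Pearson correlation.

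The alternatives were no filter, DESeq2, library totals, no block, only cells of 2000 to 6000 UMIs, thinning to 1500 UMIs before the rule, at least 2 Il22 or 3 Il17a UMIs, leaving out cells with Ifng or γδ receptor UMIs, and leaving out libraries. Added after seeing the data were barcodes outside the list with at least 400 genes and under 20% mitochondrial UMIs, a stricter gate (at least 5 T cell gene UMIs and no Kit, Fcer1g or Tyrobp) and the alternatives on the share among Il17a cells. Libraries held 34497509 to 46960005 UMIs. P-values between conditions measure the spread between libraries. Those between populations of the same animals measure the spread of the within-library difference. Intervals and floors cover counting error only.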

Additional observations from a re-analysis of the deposited data

Results flagged for a closer look

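In the comparison between genotypes of how co-producers differ from Il17a-only cells, Iglc1 was the only gene past the threshold, at 3.49 ± 0.56 on the log2 scale (SE; edgeR adjusted p = 0.00253). It encodes an immunoglobulin light chain constant region, a product of B and plasma cells. In Il17a-only cells it stood at 1067 CPM in untreated wildtype replicate 2 and between 5.25 and 135 CPM in the other libraries. DESeq2 did not call it.

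Outside the authors' cell list, 966 barcodes met the same limits on the T cell genes, Il17a, Il22 and the other genes of the rule. By library they numbered 103 and 148 in untreated wildtype, 61 and 204 in untreated mutant, 128 and 46 in DSS wildtype, and 261 and 15 in DSS mutant mice. Of these, 182 had a Cd4 UMI, which each listed cell had.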

How the results depend on the processing

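Unless noted, values are counts of genes past an adjusted p of 0.05 in edgeR, and the cause of a change was not tested. Against Il17a-only cells (50 genes) the count was 156 with no filter on low counts, 21 in DESeq2, 2 with no replicate block (the libraries not paired across populations), 4 among cells of 2000 to 6000 UMIs, 6 after thinning, 3 with the stricter T cell gate, 9 in untreated and 16 in DSS libraries alone. Against Il17a-negative cells (1202) it was 591 after thinning, 2140 with barcodes outside the list, 714 with the stricter gate, 729 and 716 in untreated and DSS libraries alone. Leaving out each library gave 37 to 55 and 996 to 1181. The dependence on treatment (0) was 9 with no filter and 1 in the depth window, and that on genotype (1) was 7 with no filter and 0 in DESeq2.

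With no filter the condition contrasts gave 49 (DSS in wildtype, 2 otherwise), 35 and 18 (mutation without and with DSS, 0 and 1), 108 (DSS in mutant, 26), 162 (DSS on average, 68), 13 (mutation on average, 0) and 27 (interaction, 0). Adding barcodes outside the list gave 2, 2, 63, 121 and 2 for mutation without DSS, mutation with DSS, DSS in mutant, DSS on average and interaction. The stricter gate gave 0, 10, 22 and 1 for mutation with DSS, DSS in mutant, DSS on average and interaction. Requiring 2 Il22 UMIs gave 1, 0 and 32 for mutation without DSS, mutation with DSS and DSS on average. The depth window gave 10 for DSS in mutant and 1 for interaction, and DESeq2 gave 0 for mutation with DSS. Fitting only the 4 libraries compared gave 4, 2, 0 and 13 for DSS in wildtype, mutation without and with DSS, and DSS in mutant. Leaving out single libraries gave 1 to 15, 0 to 10, 0 to 3, 9 to 34, 8 to 91, 0 to 1 and 0 to 6, in the order of the first sentence of this paragraph.

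Replicate numbers only name these libraries. When neighbouring animal numbers in the titles served as a replicate block, mutation gave 19 without DSS and 4 on average; same-numbered deviations correlated at r = 0.040 and 0.010.

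Signs of single genes changed as follows, with the range over left-out libraries given last. Camk4 against Il17a-negative cells (-0.02) was at 0.028 in DSS libraries and -0.084 to 0.0085. Hsp90aa1 with DSS in wildtype (-0.56) was at -1.09 to 0.19. Against Il17a-only cells, Lyz2 was at 0.25 in the depth window, 0.51 thinned and 0.034 with the stricter gate, and Rgs1 at 0.0037 thinned. Ahr (0.00) was at -0.048 with no filter, -0.017 and -0.011 with at least 2 Il22 or 3 Il17a UMIs, -0.020 in untreated libraries, and -0.028 to 0.035. The treatment dependence of Tnfrsf9 was -0.22 in the depth window. Il17f with DSS on average (0.00) was at -0.019 with no filter, -0.0082 in DESeq2, -0.019 with library totals, -0.38 in the depth window, and -0.23 to 0.34. The share among Il17a cells, mutant minus wildtype (1.26 points), was -2.19, -1.14 and -1.77 without untreated mutant replicates 1 and 2 and DSS wildtype replicate 2, within a range of -2.19 to 5.71. DSS minus untreated (-12.0 points) was -13.4 in barcodes outside the list alone (exact permutation p = 0.0286 against 0.0571 on the list, neither adjusted). Of 1532 values of single genes against Il17a-negative cells, 1463 kept direction and side of the threshold, as did 534 of 809 against Il17a-only cells, 327 of 501 for DSS on average and 175 of 275 for DSS in mutants. Summed co-producer UMIs ranged from 125362 to 778174 by library.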
